A study of Mus musculus with 12 samples.

Results

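Dbx2 and Six3, a pair of homeobox genes that pattern the embryonic nervous system, were examined for trimethylation of lysine 27 on histone H3 (H3K27me3) in mouse embryonic stem cells (ESCs) and in neural progenitor cells (NPCs). The members were every non-control probe of a custom tiling array that lay within 50 kb of a position 8.89 kb into Dbx2 or within the annotated span of Six3 and 20 kb on each side. This rule took 1043 of the 48316 probes of the array, 411 at Dbx2 and 632 at Six3, and these are 2 of 80 genes whose start sites were well covered. The position in Dbx2 and both genes had been picked with the difference between NPCs and ESCs in view, so that difference is described here and not tested.

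All cells were of the 46c line, mouse ESCs that carry a green fluorescent reporter in the Sox1 gene. There were 6 conditions with 2 arrays each: ESCs expressing eGFP as the control, ESCs transfected with 1 of the constructs tShh-Vp64, tSBE2-Vp64, tSBE6-Vp64 and tSBE(6+2)-Vp64, and NPCs obtained by differentiation in N2B27 medium. The constructs are TALE proteins, designed DNA binders, fused to the Vp64 activation domain and aimed at the Shh promoter or at its neural enhancers SBE6 and SBE2. Per the study's methods, transfected ESCs were sorted for eGFP fluorescence a day after transfection and plated again, and none of the constructs was aimed at Dbx2 or Six3. Native chromatin was digested with micrococcal nuclease, and precipitated and input DNA were hybridised together in different dyes. Both arrays of eGFP, tShh-Vp64 and tSBE2-Vp64 carry the same biological replicate label and the other labels do not say, so each condition counts as 1 sample, the mean of its arrays.

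H3K27me3 is written by Polycomb repressive complex 2 and is typical of the silent promoters of developmental regulators. In ESCs many such promoters also carry marks of activity and are called bivalent, and during differentiation the mark is lost from genes of the chosen lineage and kept or gained at others. DBX2 is a transcription factor of progenitors in the intermediate spinal cord. SIX3 acts in the anterior neural plate, eye and forebrain, where it binds the Shh enhancer SBE2. Six3os1 is a long non-coding RNA gene on the strand opposite Six3.

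Every value below is a log2 ratio of the Cy5 to the Cy3 signal with the median of the array set to 0, which is the direction of the deposited ratios. The labels give the antibody-bound DNA to Cy3 and the input to Cy5, which would turn every sign, yet the deposited ratios correlated with log2 Cy5/Cy3 at r = 0.899 to 0.944 over the probes of a condition. In the direction used, the promoters of Actb and Gapdh, which are active in all cells, were at -0.43 and -0.56 in ESCs and at -0.38 and -0.62 in NPCs. The promoters of Pou5f1 and Nanog, which keep ESCs pluripotent, were at -0.57 and -0.66 in ESCs and at 2.16 and 1.61 in NPCs, and that of Nes, an intermediate filament of neural progenitors, was at 0.81 in ESCs and -0.07 in NPCs. The promoter of Pax6, also listed as a neural progenitor marker, went the other way from Nes, at 1.74 in ESCs and 2.95 in NPCs. The labelled cell types could be checked on these ratios only, since the arrays measured no RNA.

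Dbx2 (ENSMUSG00000045608.6) lies at chr15:95453994-95486391 of mm9 on the minus strand, with 1 annotated transcript of 4 exons. The array covered 35.4 kb from chr15:95451886 to chr15:95487270, so it reached less than 1 kb upstream of the start site at chr15:95486391. Six3 (ENSMUSG00000038805.7) lies at chr17:86012948-86031153 on the plus strand with 4 annotated transcripts. The start site used was that of the transcripts with the longest coding sequence, chr17:86020371, and 1 other transcript begins at chr17:86012948. Its probes ran from chr17:85992972 to chr17:86051147 and included the whole of Six3os1 (chr17:85999991-86017736, minus strand).

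The 250 bases directly upstream of the annotated first exons differed in CpG content between the genes, a feature that the choice of members did not use. They were read from mm9 in the direction of transcription (chr15:95486392-95486641, minus strand, and chr17:86019933-86020182, plus strand), with each CpG (the letters CG, the same on both strands) in capitals. The Six3 stretch ends where another transcript begins, at chr17:86020183, upstream of the start site used for the windows:
Dbx2: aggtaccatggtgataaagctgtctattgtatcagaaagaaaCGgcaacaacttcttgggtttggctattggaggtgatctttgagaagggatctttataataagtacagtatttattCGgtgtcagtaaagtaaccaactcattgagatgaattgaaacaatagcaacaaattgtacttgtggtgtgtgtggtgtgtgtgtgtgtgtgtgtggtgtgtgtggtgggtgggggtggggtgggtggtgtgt
Six3: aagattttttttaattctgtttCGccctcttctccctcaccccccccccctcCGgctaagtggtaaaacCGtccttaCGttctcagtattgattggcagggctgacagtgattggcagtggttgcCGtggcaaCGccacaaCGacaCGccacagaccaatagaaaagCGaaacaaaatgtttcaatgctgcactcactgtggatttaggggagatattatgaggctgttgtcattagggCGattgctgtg
The Dbx2 sequence held 2 CpGs at 42.8% G+C and the Six3 sequence 10 at 48.8%. Over 80 genes with at least 10 probes within 2.5 kb of the start site, the same stretch held a median of 14 CpGs (range 2 to 40), and all 80 held at least 1. Dbx2 ranked 77 and Six3 ranked 52 of 80 by the number of CpGs. These ranks hold for the upstream bases only, since the 2 kb tile centred 1.39 kb into Dbx2 held 74 CpGs at 58.0% G+C.

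Dbx2 had low H3K27me3 ratios along most of the gene in ESCs and ratios above 1 in every 2 kb tile in NPCs. In the gene body outside the promoter (343 probes), the arrays gave 0.52 and 0.46 in eGFP ESCs, 0.49 and 0.56 with tShh-Vp64, and 0.58 and 0.53 with tSBE6-Vp64. They gave 0.30 and 0.32 with tSBE2-Vp64, 0.46 and 0.50 with tSBE(6+2)-Vp64, and 2.97 and 2.95 in NPCs. The lowest NPC array was thus far above the highest of the 10 ESC arrays. NPCs exceeded the mean of the ESC populations (0.47 ± 0.09, SD, n = 5) by 2.49, and exceeded tSBE(6+2)-Vp64, the 1 ESC population on the same slide, by 2.48.

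The Dbx2 promoter, defined as probes within 2.5 kb of the start site (44 probes), differed less between the cell types than the gene body. Its ratio was 0.62 ± 0.11 (SD, n = 5) over the ESC populations, with arrays between 0.43 and 0.81, and 1.88 and 1.87 on the NPC arrays, a difference of 1.25 (1.13 against the population on the same slide). In ESCs the promoter was 0.15 above the gene body, within the spread between populations (SD 0.16), whereas in NPCs it was 1.09 below it. That deficit depended on the window, since within 1 kb of the start site the NPC promoter minus the gene body was -0.04, and NPCs minus ESCs was 1.84. The 24 probes downstream of the gene were at -0.06 ± 0.13 (SD, n = 5) in ESCs and 1.19 in NPCs.

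**Figure D1:**
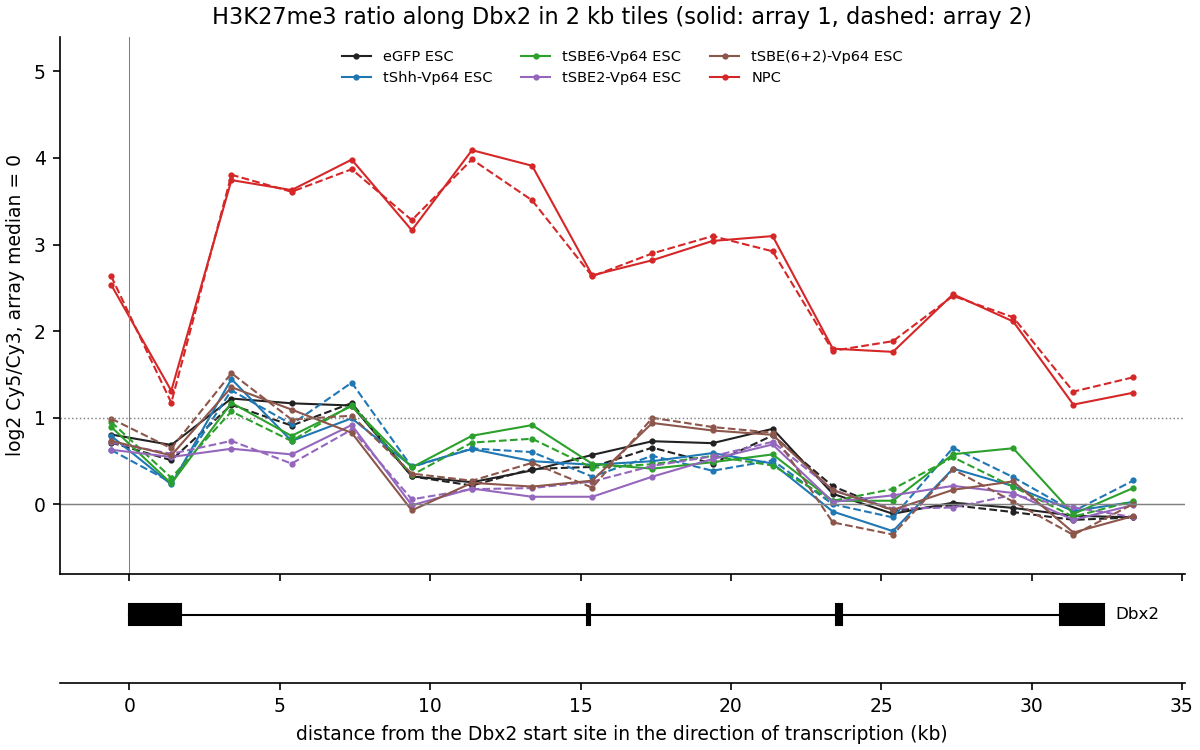
Log2 Cy5/Cy3 ratio (vertical axis) in 2 kb tiles along Dbx2 against the distance in kb from its start site (horizontal axis), with 1 line per array of each condition and the annotated exons as black boxes below. Both NPC lines lie above all ESC lines in every tile, highest inside intron 1 and lowest over the 3' part of exon 1 and the 3' end of the gene, while the ESC lines that clear the dotted line at 1 do so between 3 and 8 kb from the start.

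Within the gene, intron 1 stood out in NPCs. Its 182 probes were at 3.56 in NPCs and 0.66 ± 0.16 (SD, n = 5) in ESCs, a difference of 2.89. Intron 2 (84 probes) was 2.22 higher in NPCs than in ESCs, intron 3 (65 probes) 2.01 higher, and exon 1 (20 probes) 1.18 higher. The NPC ratio therefore stepped down from intron to intron toward the 3' end, and the exons lay below the introns, 1.52 over 44 exonic probes against 3.05 over 331 intronic probes. The ESC mean showed a weaker form of the same slope, from 0.66 in intron 1 through 0.54 in intron 2 to 0.06 ± 0.14 (SD, n = 5) in intron 3. Intron 2 was above intron 1 with tSBE2-Vp64 (0.47 and 0.40) and tSBE(6+2)-Vp64 (0.70 and 0.66), and below it in the other ESC populations. Intron 3 was the lowest in every ESC population.

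In 2 kb tiles, the highest NPC value at Dbx2 was 4.04, in the tile centred 11.39 kb into the gene, where ESCs were at 0.41. The highest ESC mean was 1.16, in the tile centred 3.39 kb into the gene, where NPCs were at 3.78. The highest tile was therefore not the same in both cell types. The tile centred 1.39 kb into the gene, over the rest of exon 1 and the start of intron 1, had an NPC ratio of 1.24 and the smallest difference from ESCs in the gene, 0.79. That tile also had the highest G+C content of the 18 tiles, 58.0%, with 74 CpGs.

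The probe that carried the highest NPC ratio at Dbx2 lay in intron 1 at chr15:95474319-95474378. It was picked for this value among probes read on every array outside untranslated exon sequence. In the direction of the dye labels its NPC ratio would be the lowest of these probes. It is shown from mm9 on the minus strand, with any CpG in capitals:
Dbx2 probe highest in NPCs: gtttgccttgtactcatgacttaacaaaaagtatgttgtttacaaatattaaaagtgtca
It holds no CpG at 28.3% G+C. It was at 6.46 and 6.51 on the NPC arrays and between -0.73 and 2.11 on the ESC arrays. Of all Dbx2 probes, 72.0% and 78.3% were well above background in Cy3 on the NPC arrays. The part of dim Cy3 signal in this ratio was not tested.

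Around the start site the ratios rose and dipped over short distances in both cell types, as the plot of 0.5 kb bins shows. In the first 0.5 kb of Dbx2, NPCs were at 4.18 and ESCs at 1.81 (5 probes, 37.0% G+C). In the bin from 1.5 to 2 kb, NPCs were at 0.18 and -0.07 on their arrays and ESCs at -0.11, with populations from -0.24 to 0.04 (8 probes, 66.9% G+C). From 3 to 3.5 kb NPCs were at 4.30 again and ESCs at 1.68 (6 probes, 36.4% G+C). The dip at the end of exon 1 thus reached the level of the array median in NPCs and ESCs alike, and it coincided with the G+C-rich stretch. The part of base composition in it was not tested.

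**Figure D2:**
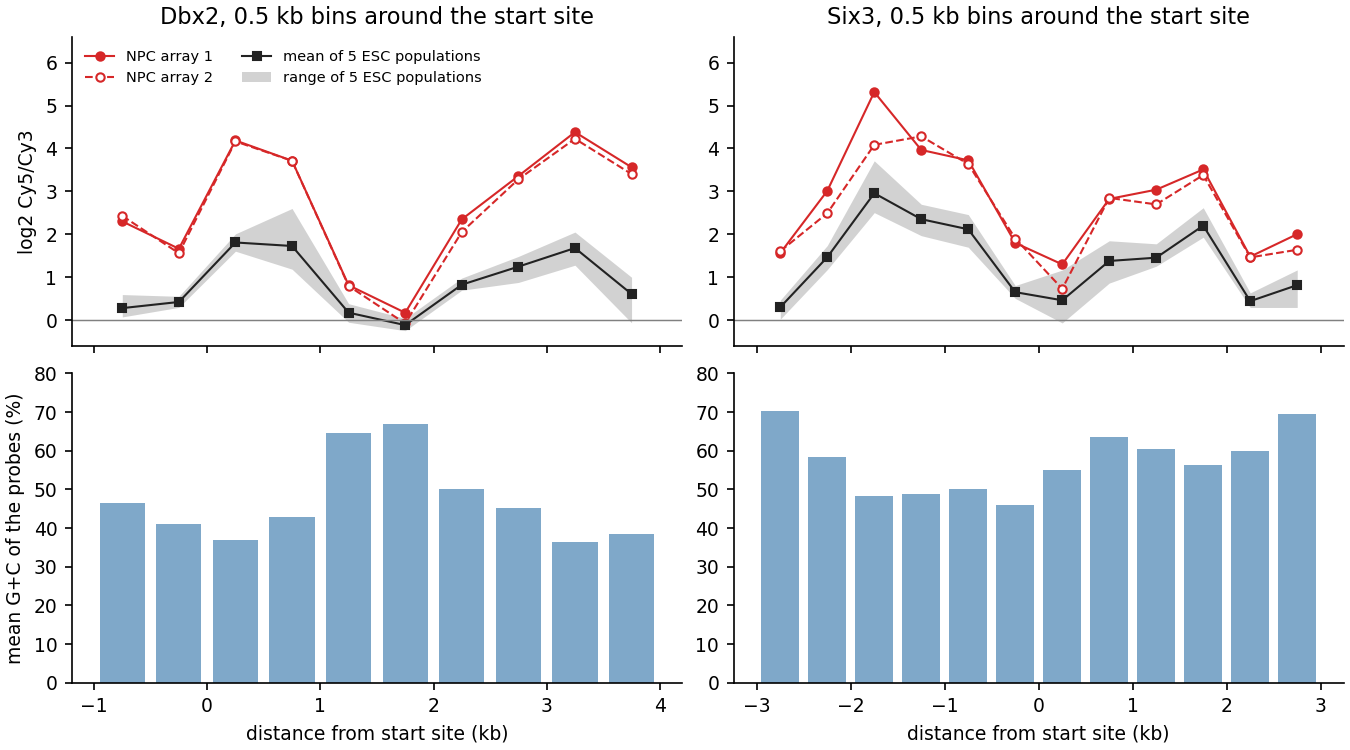
Top: log2 Cy5/Cy3 ratio in 0.5 kb bins against the distance in kb from the start site of Dbx2 (left) and Six3 (right), with both NPC arrays in red, the mean of 5 ESC populations in black and their range in grey. Bottom: mean G+C content of the probes in each bin in percent. At Dbx2 both cell types dip between 1 and 2 kb, where the probes are above 60% G+C. NPCs dip to 0.81 in the first of these bins and to 0.05 in the next. At Six3 the ratio peaks between 2 and 1 kb upstream of the start (bins of 7 and 6 probes). The NPC arrays differ in the first of these, 5.31 against 4.08. The ratio is low in the bins on either side of the Six3 start, which hold only 3 and 2 probes.

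Six3 differed from Dbx2 in that it already had high ratios in ESCs. At its promoter (52 probes) the arrays gave 2.06 and 1.77 in eGFP ESCs, 1.62 and 1.49 with tShh-Vp64, and 1.37 and 1.44 with tSBE6-Vp64. They gave 1.56 and 1.60 with tSBE2-Vp64, 1.96 and 2.08 with tSBE(6+2)-Vp64, and 3.19 and 3.04 in NPCs. Here too both NPC arrays exceeded all ESC arrays, as they did at 63.8% of the 80 promoters. The difference was 1.42 from the ESC mean of 1.69 ± 0.26 (SD, n = 5) and 1.09 from the population on the same slide.

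The higher ratio in NPCs extended well beyond the Six3 gene. The gene body (159 probes) was at 2.62 in NPCs against 1.28 ± 0.20 (SD, n = 5) in ESCs, the upstream flank (230 probes) at 2.60 against 1.28 ± 0.13, and the downstream flank (191 probes) at 2.08 against 1.23 ± 0.15. The differences were 1.34, 1.32 and 0.85. Against tSBE(6+2)-Vp64 on the same slide they were 1.10, 1.14 and 0.66. At Dbx2 the promoter was the highest window in ESCs alone, and there above the gene body by less than the spread between populations. At Six3 the promoter was the highest of these windows in both cell types, 0.44 above the flanks in ESCs and 0.75 above them in NPCs. Within 1 kb of the start these differences were 0.16 and 0.48. With loess and scale normalization the NPC difference at the promoter was 0.64 in place of 1.42, and with the deposited ratios it was 0.87. At the upstream and downstream flanks the NPC difference was 0.66 and 0.33 with loess and scale normalization. With the deposited ratios the flanks gave 0.90 and 0.50.

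**Figure D3:**
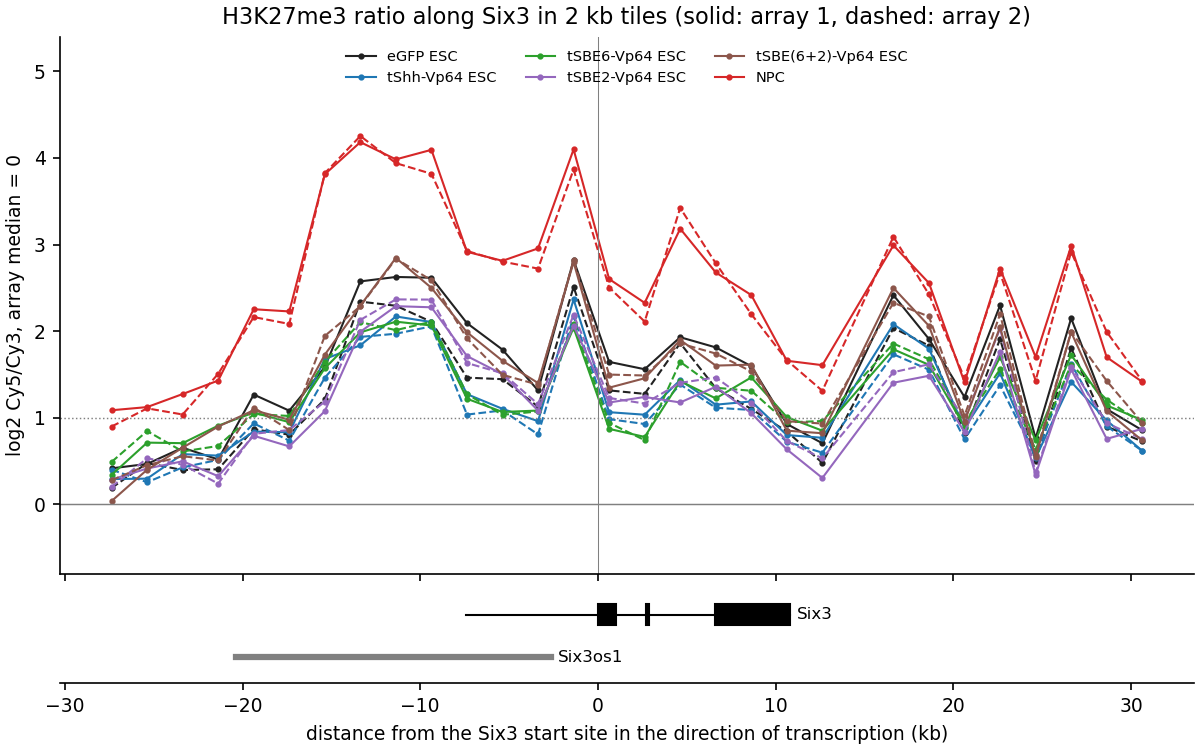
Log2 Cy5/Cy3 ratio (vertical axis) in 2 kb tiles along Six3 against the distance in kb from its start site (horizontal axis), with 1 line per array of each condition. Exons of the Six3 transcript used are black boxes, the black line is the annotated span of the gene and the grey bar is Six3os1. ESC and NPC lines are both high 9 to 13 kb upstream and just before the start site, and both NPC lines lie above all ESC lines in every tile, by least in the tile centred 20.63 kb downstream. Between 12.63 and 16.63 kb the lines run straight across 1 tile that held too few probes.

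The high tiles of Six3 lay in the same stretches in both cell types, although the single highest tile differed. The highest 2 kb tile in NPCs, 4.22, was centred at -13.37 kb from the start site, within Six3os1, where ESCs were at 2.15. ESCs were highest in the tile at -1.37 kb, 2.39, and nearly as high in that at -11.37 kb, 2.35. NPCs were at 3.98 and 3.96 there. Over the 212 probes within the Six3os1 span, ESCs were at 1.59 ± 0.18 (SD, n = 5) and NPCs at 3.23. Around the start of Six3os1 (65 probes within 2.5 kb) they were at 1.70 ± 0.22 and 3.36, and probes around the upstream start of the Six3 span, chr17:86012948, were at 1.70 ± 0.28 and 3.15. Farther downstream the profile alternated, with the tile centred 16.63 kb past the start at 3.04 in NPCs and 1.97 in ESCs and that at 20.63 kb at 1.43 and 0.93.

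The probe with the highest NPC ratio at Six3 lay upstream of the gene at chr17:86005355-86005414 and that with the highest ESC ratio at chr17:86009275-86009334, both inside the Six3os1 span and outside its exons. They were picked and are shown as for Dbx2, here on the plus strand:
Six3 probe highest in NPCs: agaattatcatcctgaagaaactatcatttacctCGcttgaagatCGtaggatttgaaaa
Six3 probe highest in ESCs: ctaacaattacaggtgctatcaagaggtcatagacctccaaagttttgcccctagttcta
The first (33.3% G+C) was at 6.65 and 6.75 in NPCs and at most 3.53 on the ESC arrays. The second (41.7% G+C, no CpG) was at 5.81 and 5.55 in NPCs and between 3.50 and 5.86 in ESCs, so that its cell types overlapped although it had the strongest ESC ratio of the gene.

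Among 963 tiles of 5 kb with at least 5 probes on every array, the tile at chr17:86005001-86010000 upstream of Six3 had the highest NPC ratio on the whole array, 4.24. It ranked between 5 and 8 in each of the ESC populations, at 2.04 to 2.60. The highest Dbx2 tile of NPCs ranked 14 (3.63), and the highest Dbx2 tile of each ESC population, which was another one, ranked between 106 and 128 (0.78 to 1.02). Dbx2 had 4 tiles among the top 50 in NPCs and 0 in each ESC population, and Six3 had 3 or 4 in every condition. These ranks hold for the direction of the deposited ratios, and in that of the dye labels the Six3 tile would be the lowest in NPCs.

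Both NPC arrays exceeded all 10 ESC arrays in 8 of 8 tiles at Dbx2 and in 12 of 12 at Six3. Over all tiles this held for 32.8%, and since the genes were picked on this contrast the comparison is given only as background. Of the probes read on every array, 302 of 344 at Dbx2 and 301 of 447 at Six3 had both NPC arrays above all ESC arrays, against 17.1% of all probes. The tile difference had a median of 2.06 at Dbx2 (1.27 to 3.06) and 1.15 at Six3 (0.70 to 2.00), and of 0.05 over all tiles. Limma called 26.9% of all tiles higher in NPCs at an adjusted p under 0.05. At the downstream edge of the Six3 window, the last 2.5 kb inside it was 0.64 higher in NPCs than in ESCs and the first 2.5 kb outside it 0.46 higher.

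**Figure D4:**
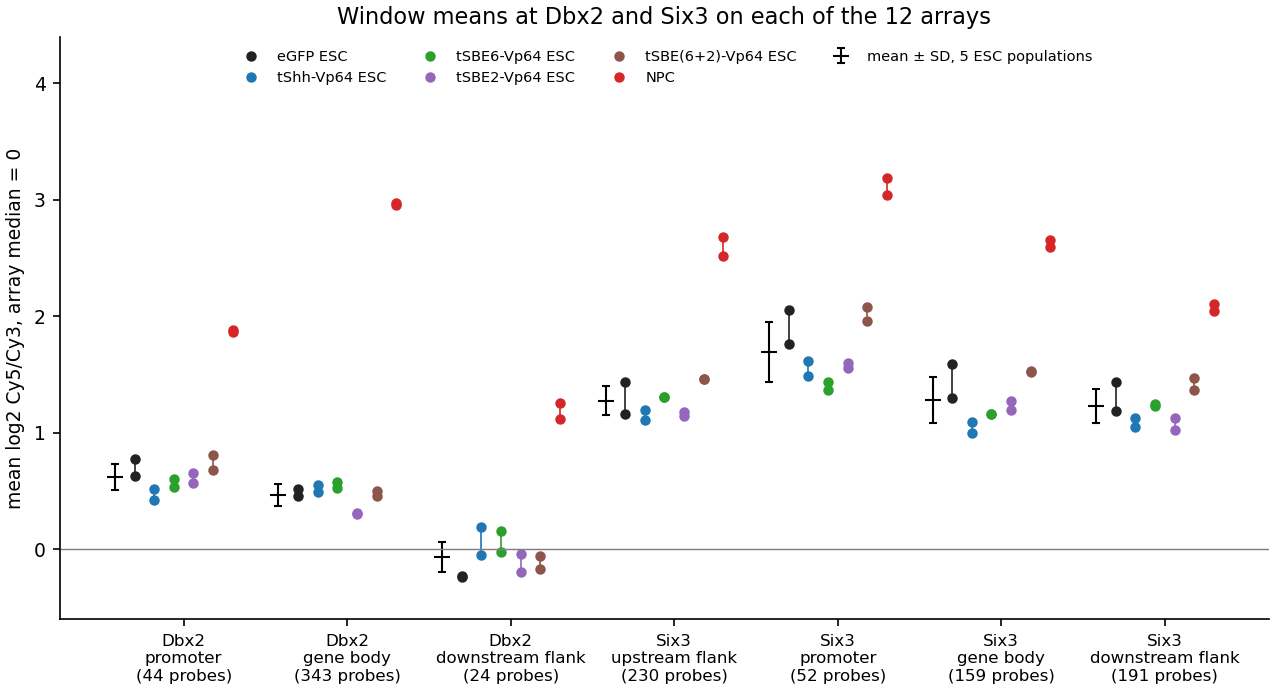
Mean log2 Cy5/Cy3 ratio (vertical axis) of the windows at Dbx2 and Six3 (horizontal axis, with the number of probes) on each array, with 2 joined points per condition and a black bar for the mean and SD over the 5 ESC populations. In all 7 windows both NPC points lie above every ESC point, by most in the Dbx2 gene body (2.49 above the ESC mean), and the ESC points are higher at Six3 than at Dbx2.

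The stretch over which the ratio was high separated the genes as well. A block was a run of 2 kb tiles at 1 or more on both arrays of a condition, with gaps of at most 1 tile. At Dbx2 blocks covered 6 kb in eGFP and tSBE6-Vp64 ESCs, 2 kb with tShh-Vp64 and tSBE(6+2)-Vp64 and none with tSBE2-Vp64, always between 2 and 9 kb into the gene, and 36 kb in NPCs, where all 18 tiles passed. At Six3 they covered 34 to 44 kb in the ESC populations and 58 kb in NPCs, where 28 of 29 tiles passed. Thus in NPCs the block at each gene ran to within 1 tile of the ends of the probes examined, so neither its outer limit nor its length could be read.

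CpG content went with the ratios differently at each gene. At Dbx2, probes without a CpG were at 2.88 in NPCs (171 probes) and those with 3 or more at 2.31 (35 probes), whereas their ESC means were alike at 0.43 and 0.44. At Six3 the same classes were at 2.42 (231 probes) and 2.58 (113 probes) in NPCs and at 1.31 and 1.24 in ESCs. Over all probes of the array, those with 3 or more CpGs were at 1.08 and those with none at 0.16 in NPCs. Across 2 kb tiles, which share arrays and neighbours, the NPC ratio was correlated with base composition as a description. With G+C content, r was -0.41 at Dbx2 (18 tiles) and 0.01 at Six3 (29 tiles). With the number of CpGs, r was -0.26 at Dbx2 and 0.29 at Six3.

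The TALE-Vp64 constructs were not used to pick the genes, so their comparison with eGFP ESCs was tested. No tile of Dbx2 or Six3 passed the test. Limma, over 1 sample per condition with Benjamini-Hochberg adjustment, called 0 of 963 tiles (0%), and at an unadjusted p under 0.05 it took 11 of 963 (1.14%), of which 0 were at Dbx2 or Six3. At Dbx2 the mean of the constructs differed from eGFP by -0.15 to 0.25 over the 8 tiles, 6 of them below 0. At Six3 it differed by -0.32 to 0.07 over the 12 tiles, 10 of them below 0, with a median of -0.17 against -0.03 over all tiles.

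The tile at chr17:86020001-86025000, which holds the Six3 start site, came nearest to a difference. It was at 1.56 in eGFP ESCs, 1.13 with tShh-Vp64, 1.05 with tSBE6-Vp64, 1.24 with tSBE2-Vp64 and 1.56 with tSBE(6+2)-Vp64. The mean difference was -0.32 ± 0.18 (SE), with an adjusted p of 0.997 from limma. The first 3 constructs lay below eGFP and the last at its level. With a single control sample and this SE, a shift of the size seen could not be told from 0, and no shift is not shown either.

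The constructs on the slide of eGFP and tSBE(6+2)-Vp64 on the other slide differed in sign at the Six3 promoter. The difference from eGFP was -0.36 with tShh-Vp64, -0.51 with tSBE6-Vp64, -0.33 with tSBE2-Vp64 and 0.11 with tSBE(6+2)-Vp64. Both arrays of tShh-Vp64 lay below both eGFP arrays in 9 of 12 Six3 tiles (31.6% of all tiles), those of tSBE6-Vp64 in 6 (40.0%), those of tSBE2-Vp64 in 9 (35.9%) and those of tSBE(6+2)-Vp64 in 1 (28.0%). They lay above both eGFP arrays in 3 Six3 tiles with tSBE6-Vp64 (27.3% of all tiles), in 4 with tSBE(6+2)-Vp64 (25.3%) and in 0 with tShh-Vp64 (32.2%) or tSBE2-Vp64 (11.8%). Without tSBE(6+2)-Vp64, 6 of the 8 Dbx2 and 12 Six3 tiles together had an unadjusted limma p under 0.05, against 81 of 963 tiles (8.41%). The share was thus larger at the member tiles than over all tiles. The count of 6 was not split by gene or direction, and limma still called 0 after adjustment. The eGFP arrays themselves gave 2.06 and 1.77 at this promoter, and the mean of the constructs minus eGFP, -0.27, was -0.43 on the R1 arrays alone and -0.11 on the R2 arrays alone. Slide, array spread and construct cannot be told apart for tSBE(6+2)-Vp64, whose ratios were spread 1.20 times as widely as those of the other ESC populations by the slope over tiles and which had 58.2% and 73.8% of its probes well above background in Cy3, the lowest pair among the ESC populations. The difference between the constructs was not tested.

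**Figure D5:**
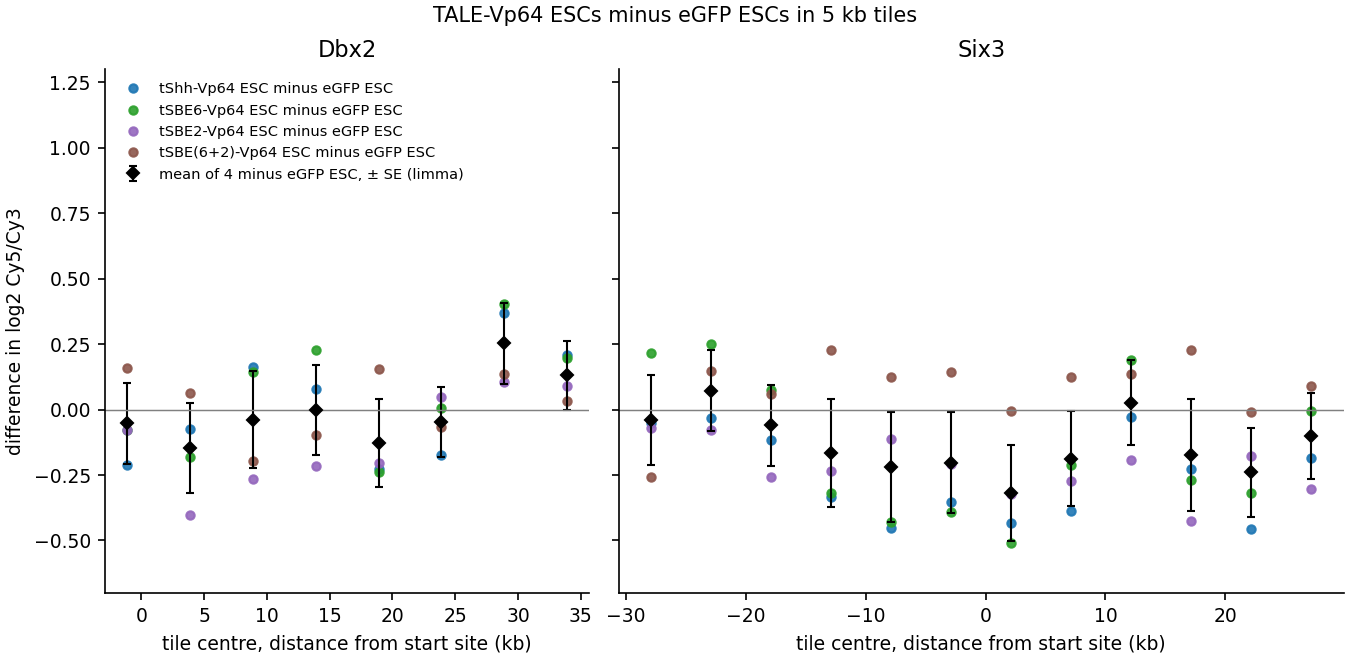
Difference in log2 Cy5/Cy3 ratio between TALE-Vp64 ESCs and eGFP ESCs (vertical axis) in the 5 kb tiles of Dbx2 and Six3 against the distance in kb of the tile centre from the start site (horizontal axis). Coloured points are single constructs, and black diamonds with bars are the mean of the 4 constructs with the SE from limma. The mean lies between -0.32 and 0.25 in all 20 tiles, and none passed the test.

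At the promoter and gene body of Dbx2 the constructs differed from eGFP in both directions. The promoter differed from eGFP by -0.23 with tShh-Vp64, -0.14 with tSBE6-Vp64, -0.09 with tSBE2-Vp64 and 0.04 with tSBE(6+2)-Vp64. The gene body differed by 0.04, 0.06, -0.18 and -0.01 in the same order. In the 24 probes of the downstream flank all constructs were above eGFP, by 0.30, 0.30, 0.12 and 0.12, and the tile at chr15:95455001-95460000 had the largest mean difference of the Dbx2 tiles, 0.25 ± 0.15 (SE), with an adjusted p of 0.997 from limma. The differences at the gene body were small beside the 2.49 between NPCs and ESCs in the same window.

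Other promoters were compared with those of Dbx2 and Six3 by the Pearson correlation of their 6 condition means. The correlation is mostly set by the step from ESCs to NPCs, so it is a description of likeness, over 77 promoters outside the windows. Closest to Dbx2 were Sox2 (r = 0.998), a transcription factor of pluripotent and neural progenitor cells, Hoxd10 (0.995), a homeobox gene of posterior patterning, and Gm15217 (0.995). Their levels were unlike, since Sox2 went from -0.16 in ESCs to 0.80 in NPCs and Hoxd10 from 2.20 to 3.65. Closest to Six3 were Irf4 (0.999), an interferon regulatory factor of lymphocytes, Nkx2-2 (0.995), a homeobox gene of the ventral neural tube, and its antisense neighbour Nkx2-2as (0.994). Irf4 went from 1.23 to 2.58 and Nkx2-2 from 1.32 to 2.68, near the Six3 values of 1.69 and 3.12.

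Of a list of 91 neural patterning genes, 24 had a promoter on the array. Both NPC arrays were above all ESC arrays at 15 of these, Dbx2 and Six3 among them, and below at 5, against 63.8% above and 12.5% below over the 80 promoters. The median difference between NPCs and ESCs was 1.04 over the list and 0.67 over all promoters. The highest were Bmp4, a dorsal signal (0.32 in ESCs, 3.09 in NPCs), and Foxa2, a factor of the floor plate (1.46 and 3.18), and the lowest were Npas3, a transcription factor of the developing brain (1.88 and 0.93), and Nes. The Shh promoter, the target of tShh-Vp64, was at 1.41 ± 0.25 (SD, n = 5) in ESCs and 2.59 in NPCs, between the values of Dbx2 and Six3 in both. Per the study, its ESCs do not express Shh and its NPCs do, and Six3 is upregulated as ESCs become NPCs. The arrays measured no RNA, so the relation of these ratios to expression was not tested.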

How the data were processed

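H3K27me3 ChIP-chip was read on 12 custom Agilent arrays, 2 for each of 6 conditions. The deposited scanner files hold signal intensities per spot and dye, per the file headers from Agilent Feature Extraction 11.5.1.1, which subtracts background. In its processed intensities the dyes were not level. The median log2 Cy5/Cy3 ran from -1.19 on NPC array 1 to -0.20 on eGFP array 2 before the arrays were centred. The authors also deposited log2 ratios with the arrays of each condition combined, made with limma per the labels, without version or settings in the sources used here. They served as an alternative and set the direction used here. They do not show which dye held the antibody-bound DNA.

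From the processed intensities, log2 Cy5/Cy3 was taken per probe, spots that Feature Extraction marked as outliers in either channel were left out, and each array was centred on its median. No loess or quantile step was used, since many probes can carry signal. The probes have 60 bases and mm9 coordinates, and gene models came from GENCODE on the same build. A promoter was the probes within 2.5 kb of the start of the transcript with the longest coding sequence. Tiles of 5 kb with at least 5 probes on every array were tested with limma 3.58.1 (lmFit and eBayes in R 4.3.3) and adjusted over all tiles by the Benjamini-Hochberg method. Windows, sequences and figures were made with Python 3.11.15 and matplotlib 3.10.9. The scripts were tested on simulated data. Arrays give no read depth, and their number limits the precision. At the members, 51.1% to 98.7% of probes were well above background in Cy3 and 88.8% to 100% in Cy5, and the arrays of a condition correlated at r = 0.69 to 0.94 over the probes of a gene. NPC and tSBE(6+2)-Vp64 arrays shared 1 slide and scan, the others another. Nothing says that the conditions were separate cultures in more than 1 sample each, so p-values measure only the spread between these samples, which may be technical. In the comparison of TALE-Vp64 with eGFP, the eGFP ESCs and the NPCs were 1 sample each. The spread within a tile was then that between the 4 different constructs, which lay on both slides.

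The members and gene lists were chosen with earlier results of these data known. Named were both genes, overlapping genes, the 3 promoters most like each by Pearson correlation, the highest and lowest of the neural patterning list, and Shh. The arrays of different conditions with the same number did not deviate together (r of -0.25 to 0.43 over 15 pairs), so the number was not used as a pairing. Alternatives were loess with scale normalization, normexp with an offset of 50 on median signals (the files used here give medians in place of means), the deposited ratios, filters on dim probes in each dye, other windows, tile sizes, thresholds and averages, leaving out the R1 or the R2 arrays or each population, the slide as a block, and the direction of the dye labels. An NPC scaling by its slope on ESCs and the gene body as the compared window were chosen after seeing the data. The values and sequence of 1 probe are not reported here.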

Additional observations from a re-analysis of the deposited data

Results flagged for a closer look

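In the Dbx2 gene body, tSBE6-Vp64 was above and tSBE2-Vp64 below eGFP ESCs on both arrays, and the constructs differed by 0.241. This difference was not tested. Such positions were common on the array. Both tSBE6-Vp64 arrays were above both eGFP arrays in 27.3% of all 5 kb tiles, and both tSBE2-Vp64 arrays below them in 35.9%.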

How the results depend on the processing

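Every window difference between NPCs and ESCs kept its sign under all settings that keep the direction of the ratios, and the cause of the changes in size was not tested. Differences are given for the Dbx2 promoter, Dbx2 gene body, Six3 promoter and Six3 gene body in that order, 1.25, 2.49, 1.42 and 1.34 as reported. They were 0.79, 1.76, 0.64 and 0.66 with loess and scale normalization, 0.87, 1.86, 0.87 and 0.80 with the deposited ratios, and 0.88, 1.91, 0.81 and 0.82 with NPC values divided by their slope on ESCs (1.24). Against the ESC population on the same slide they were 1.13, 2.48, 1.09 and 1.10. Normexp gave 1.12 and 2.23 at Dbx2, the filter on dim Cy3 probes 0.82 and 2.06, that on Cy5 2.38 for the gene body, and the median over probes 2.59 for the gene body. A promoter within 1 kb gave 1.84 and 2.38 at Dbx2, and one within 5 kb gave 1.85 for the promoter. The difference of 1.26 at the Dbx2 downstream flank was 0.94 with loess and scale normalization. It was 0.81 with the deposited ratios and 0.59 with the Cy3 filter.

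The Dbx2 promoter exceeded the flank by 0.69 in ESCs and 0.68 in NPCs. In ESCs this was 0.37 with the deposited ratios, 0.20 with the Cy3 filter, 1.03 within 1 kb and 0.42 with the median. In NPCs it was 0.43 with loess and scale normalization, with the deposited ratios and with the Cy3 filter (0.425, 0.426 and 0.427), 1.61 within 1 kb, 1.47 within 5 kb and 0.35 with the median. The Six3 promoter exceeded its flanks in NPCs by 0.75, by 0.52 with loess and scale normalization and by 0.48 within 1 kb, and in ESCs by 0.44, or 0.16 within 1 kb.

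In the direction of the dye labels, NPCs minus ESCs was -1.25, -2.49 and -1.26 at the Dbx2 promoter, gene body and downstream flank, and -1.42, -1.34, -1.32 and -0.85 at the Six3 promoter, gene body, upstream and downstream flanks. Promoter minus flanks was -0.69 and -0.68 at Dbx2 and -0.44 and -0.75 at Six3 in ESCs and NPCs. Promoter minus gene body was 1.09 for Dbx2 in NPCs and -0.41 and -0.49 for Six3 in ESCs and NPCs. TALE-Vp64 minus eGFP was 0.10 at the Dbx2 promoter and 0.27 and 0.20 at the Six3 promoter and gene body. The 26.9% of tiles called higher in NPCs would be called lower, and the 32.8% of tiles with both NPC arrays above all ESC arrays would be below them. Blocks of high ratio were then 0 kb at both genes in eGFP ESCs and in NPCs.

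Blocks at Dbx2 in eGFP ESCs (6 kb) were 0 kb with normexp, the deposited ratios, the Cy3 filter, 5 kb tiles or a threshold of 1.5, 2 kb with the Cy5 filter and 16 kb at a threshold of 0.5, and the Six3 block (38 kb) was 22 kb at 1.5. Limma called 371 of the 963 tiles between NPCs and ESCs. It called 672 of the 2 kb tiles, 215 of the 10 kb tiles, where fewer tiles exist, and 558 with arrays as separate samples. With the replicate number as a block it called 539, and the numbers did not pair the arrays. Between the TALE-Vp64 constructs and eGFP it called 0 in every setting but 1, including 0 with arrays as separate samples with or without the replicate block. Without replicate 1 it called 1 tile, which was at neither gene, and without replicate 2 it called 0. With the R1 arrays of all conditions left out, or the R2 arrays, the differences between NPCs and ESCs moved by less than the spread between ESC populations. TALE-Vp64 minus eGFP then ranged from -0.20 to -0.01 at the Dbx2 promoter (-0.10 as reported), from -0.06 to 0.02 at its gene body (-0.02), from -0.43 to -0.11 at the Six3 promoter (-0.27) and from -0.35 to -0.06 at its gene body (-0.20), with the smaller sizes on the R2 arrays.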
